A study of Mus musculus with 4 samples.

Results

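The genes described here are 35 genes of glycolysis and of the cellular response to low oxygen, followed in Prss56-lineage cells of the mouse spine. They were chosen by symbol for their roles, by a rule that uses no measured value but was set with earlier results of these data known, among the 32286 rows of each count table. They comprise 2 glucose transporters, 9 genes of upper glycolysis, 2 regulators of fructose 2,6-bisphosphate, 5 genes of lower glycolysis, 5 genes of lactate and pyruvate fate, 4 hypoxia-inducible factor (HIF) subunits and prolyl hydroxylases and 8 HIF target genes. All 35 had at least 1 UMI in the passing cells of each of the 4 libraries.

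Glycolysis splits glucose into pyruvate and makes ATP without oxygen, and lactate dehydrogenase then turns pyruvate into lactate, which leaves the cell through monocarboxylate transporters. Oxygen reaches cartilage and the intervertebral disc only by diffusion, and their cells are known to live largely on glycolysis. In low oxygen the prolyl hydroxylases encoded by the Egln genes no longer mark HIF-α for breakdown, and HIF raises the transcription of glucose transporters, glycolytic enzymes, Vegfa and many other genes.

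In this study tdTomato-positive (tdTom+) cells were sorted from vertebrae T11 to L2 after digestion with collagenase and dispase at 37 °C and were sequenced with 10x Genomics 3′ chemistry, which counts RNA molecules (UMIs) at the 3′ end of transcripts. Cells stained for CD11b, CD31 or CD45 and dead cells had been discarded at the sorter. The control genotype was Prss56Cre/+;R26tdTom/tdTom;Nf1+/+ and the mutant genotype Prss56Cre/Cre;R26tdTom/tdTom; Nf1fl/fl, each at 3 months and at 12-16 months of age, with 1 library for each of the 4 conditions. Both genotypes carry the Cre allele and the tdTomato reporter, Cre is driven by Prss56 so that only cells of that lineage can lose Nf1, and the mutant has 2 Cre alleles against 1 in the control, so that an effect of Nf1 loss cannot be told apart from one of Cre dosage. The number of mice in a library is not given in the sources used here.

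Barcodes needed over 750 UMIs, over 500 genes and under 7% mitochondrial UMIs to be kept, which left 717 cells of 922 barcodes in the library labelled 3-month control, 484 of 542 in that labelled 3-month mutant, 135 of 163 in that labelled 12-16-month control and 421 of 545 in that labelled 12-16-month mutant. They held 9429264, 7287981, 2154537 and 4398951 UMIs, and no barcode was shared between libraries. Values of the 4 libraries are given below in this order. Nf1, the floxed gene, had 131, 149.7, 147 and 125 CPM (counts per 1e6 UMIs) over all passing cells. Mutant label over control label, the ratio was 1.14 (95% counting interval 1.05 to 1.24) at 3 months and 0.853 (0.742 to 0.982) at 12-16 months, so at 3 months the mutant label did not go with less Nf1 mRNA. Counts at the 3′ end of Nf1 do not read a deletion further upstream in the gene, and the libraries are therefore named by their labels throughout.

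Cells were placed in 4 gates by genes that are not among the 35. Hypertrophic cells had at least 1 UMI of Sox9 and at least 2 of Ihh, Panx3 and Prkg2 together, endplate cells had at least 1 of Sox9 and at least 3 of Zfp804b and Dab1 together, other cartilage cells had at least 1 of Sox9 and at least 3 of Acan, and bone/stroma cells had at most 2 of Acan and at least 1 of Runx2. A cell took the first gate it met in this order. The gates held 38, 136, 15 and 56 hypertrophic cells, 14, 38, 1 and 6 endplate cells, 511, 203, 74 and 196 other cartilage cells and 44, 39, 26 and 83 bone/stroma cells, and 110, 68, 19 and 80 cells met no gate. Of the hypertrophic cells, 16, 104, 11 and 32 also met the endplate gate.

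The markers of each gate bore out its name in part. Col10a1, the collagen of hypertrophic cartilage, had 2993, 640, 0 and 2215 CPM in the hypertrophic gate, so that the library labelled 12-16-month control held no UMI of it there. Col2a1, the main collagen of cartilage, had 2833, 1568, 2713 and 1611 CPM in other cartilage, and markers of immune cells summed to at most 3.00 CPM there. The bone/stroma gate of the library labelled 3-month mutant stood apart, with 1710 CPM of immune markers against 6.37, 186 and 279 CPM in the others and 208 CPM of the osteocalcin gene Bglap against 23020, 28402 and 8302 CPM. Markers of smooth muscle cells and pericytes summed to 900, 11.6, 14.1 and 609 CPM in the bone/stroma gates. Such cells therefore enter the label and age contrasts of this gate unequally, and their part was not tested. Hypertrophic cells were deeper, with a median of 21115, 20298.5, 27015 and 19801.5 UMIs per cell against 12374, 10469, 9848 and 7166 in other cartilage. Levels are therefore shares of all UMIs, and values per cell are described beside some of them.

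As shares of all UMIs, glycolysis and hypoxia genes were highest in the other cartilage cells. The 16 glycolytic enzymes together (upper and lower glycolysis, Ldha and Ldhb) made up 5422, 5625, 5519 and 5243 CPM there, against 2347, 989, 2270 and 3123 CPM in the hypertrophic gate, 3224, 1421, 913 and 3229 CPM in the endplate gate and 1208, 2533, 859 and 1184 CPM in the bone/stroma gate. On this scale every library had its highest value in other cartilage, and no value of another gate reached the lowest of other cartilage. Per cell, the library labelled 12-16-month mutant had a higher enzyme sum in the hypertrophic gate than in other cartilage. The endplate value of 913 CPM rests on 1 cell, which had 15191 CPM of osteoblast markers and 161 CPM of chondrocyte markers.

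**Figure D1:**
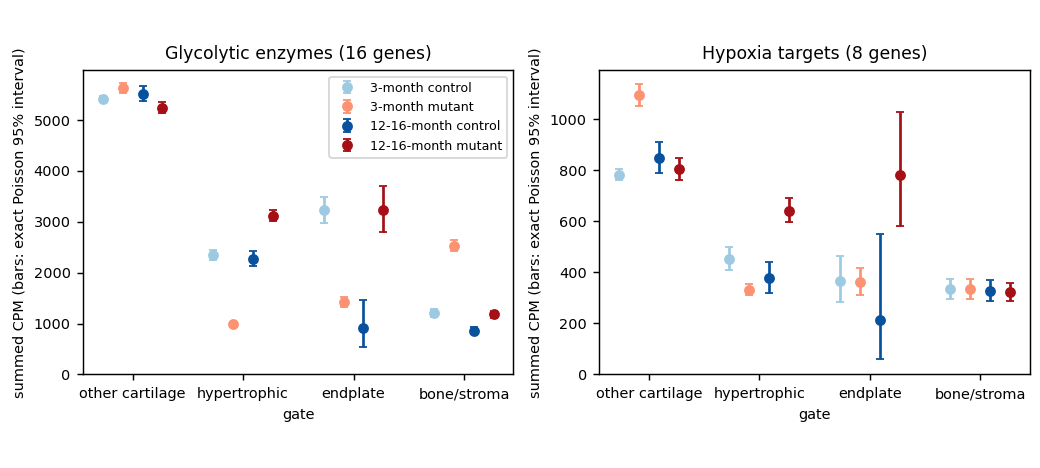
Summed level in CPM (vertical axis, from 0) of the 16 glycolytic enzymes (left) and the 8 hypoxia targets (right) in each gate (horizontal axis) and library (color), with exact Poisson 95% intervals for counting error. The enzymes sat between 5243 and 5625 CPM in other cartilage of all 4 libraries and at or below 3229 CPM in every other gate.

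The difference between gates was tested gene by gene across the libraries. UMIs were summed per library and gate, and each gate was compared with other cartilage by edgeR's quasi-likelihood test with the library as a block and Benjamini-Hochberg adjustment over 10730 genes, so that the libraries are the replicates and n is 4 (3 for the endplate gate, where the single cell of the library labelled 12-16-month control was left out). Nothing says whether the libraries come from more than 1 mouse each, and p-values rest on how far gate differences vary between these libraries. At an adjusted p under 0.05, 25 of the 35 genes were lower and 1 was higher in the hypertrophic gate, where 13.8% of all genes were lower and 12.2% higher. In the endplate gate 14 were lower and 2 higher (7.7% and 6.7% of all genes), and in the bone/stroma gate 25 were lower and 3 higher (17.9% and 17.9% of all genes). The median log2 difference of the 35 genes was -1.51, -1.46 and -1.93 in the 3 gates, beside -0.05, -0.11 and 0.04 for all genes tested. Library values did not overlap between the gate and other cartilage for 21 genes that were lower in the hypertrophic gate (13.3% of all genes), 18 in the endplate gate (10.7%) and 22 in the bone/stroma gate (14%).

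The counts depend on scale and on single libraries. Counted as UMIs per cell, the median of all genes moved to 1.10 in the hypertrophic gate and 0.93 in the bone/stroma gate, and the 35 genes had a median of -0.29 and -0.97, with 7 and 17 lower and 5 and 6 higher. Of all genes, 4.93% and 8.17% were lower and 64.8% and 55.1% higher per cell in these gates. Relative to the median of all genes the 35 stood at -1.46 on the CPM scale and -1.39 per cell in the hypertrophic gate, and 32 and 31 of them lay below it. In the endplate gate 9 were lower and 2 higher per cell (3.17% and 13.4% of all genes). Per cell, the difference of 5 genes called lower in the hypertrophic gate had the opposite sign namely Pfkl (0.08), Eno1 (0.12), Pdk1 (0.52), Hif1a (0.40) and Kdm3a (0.10), and so did Hk1 in the bone/stroma gate (0.10). Without the library labelled 3-month control, 16 genes stayed lower in the hypertrophic gate (8.87% of all genes) and 6 in the endplate gate (2.75%). With another library left out 17 to 22 (9.02% to 13.4% of all genes) and 11 or 12 (3.9% to 5.72%) did. The 2 genes higher in the endplate gate, Ldhb and Car12, were both no longer called without the library labelled 3-month control, 3-month mutant or 12-16-month control. Genes of the stress response to digestion (17 genes, such as Fos and Atf3) also differed between the gates, summing to 28552, 24274, 25338 and 19906 CPM in other cartilage, 19171, 13388, 9587 and 12029 CPM in the hypertrophic gate and 8533, 6700, 2322 and 2564 CPM in the bone/stroma gate. In the endplate gate they summed to 25507, 16612, 1181 and 16803 CPM, the first within the cartilage range and the third from 1 cell. Of these 17, 9, 5 and 15 were lower in the hypertrophic, endplate and bone/stroma gates (13.8%, 7.7% and 17.9% of all genes). Dnajb1 was called higher in the hypertrophic gate. The part of the stress genes in the result was not tested.

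**Figure D2:**
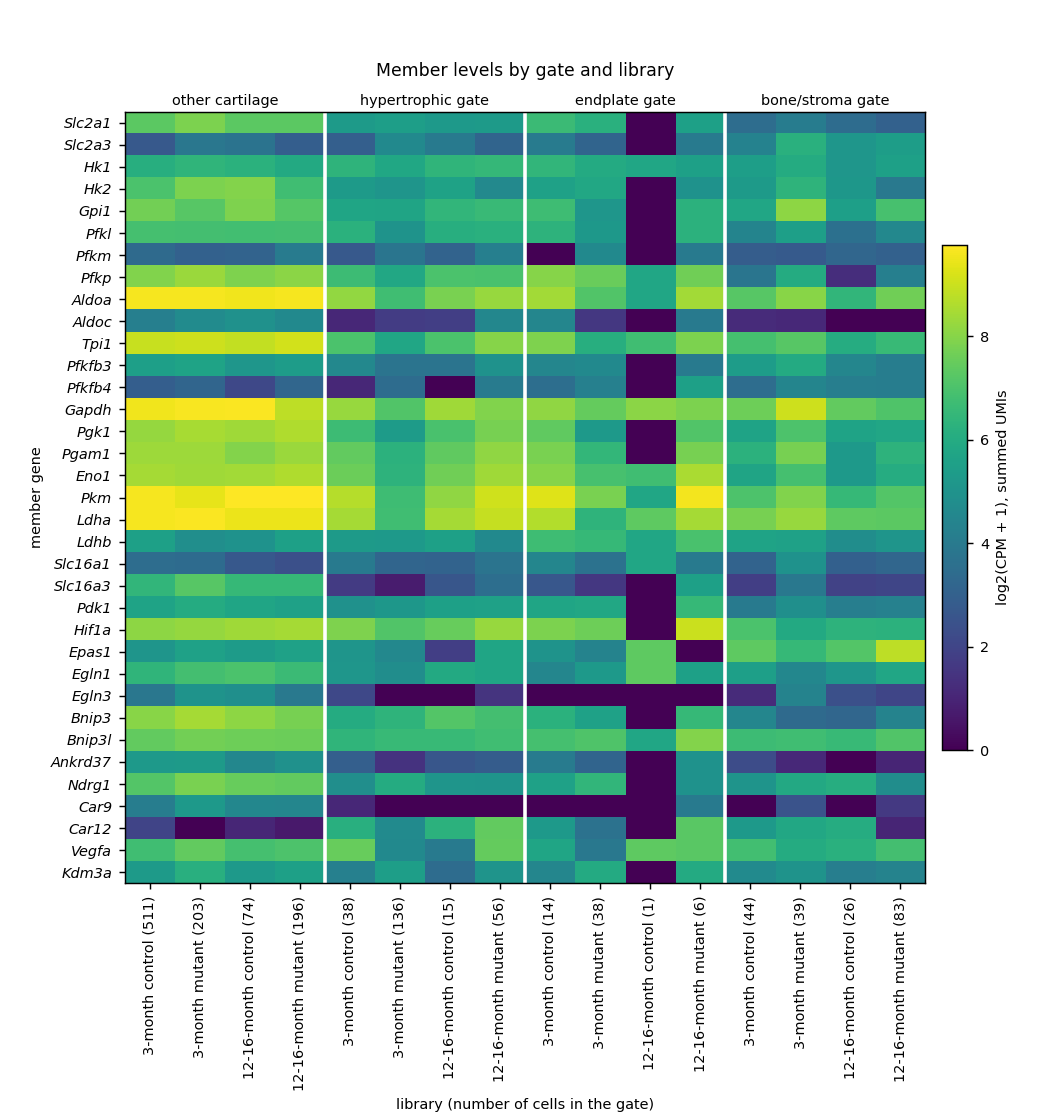
Level of each of the 35 genes (rows) in each gate and library (columns, with the number of cells), as log2(CPM + 1). The other cartilage columns were brightest for most genes, while Car12 was brighter in the hypertrophic gate of every library.

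Of the 2 glucose transporters, Slc2a1 and Slc2a3 went opposite ways. Slc2a1 (GLUT1, the widely used transporter; ENSMUSG00000028645, chromosome 4, 119108711 to 119137983 of GRCm38) had 159, 228, 157 and 159 CPM in other cartilage, 39.6, 43.1, 37.9 and 38.9 CPM in the hypertrophic gate and 10.2, 16.2, 9.85 and 7.22 CPM in the bone/stroma gate. The 3 ranges did not overlap, and the hypertrophic values were close to each other. The log2 difference from other cartilage was -2.31 ± 0.21 (SE) in the hypertrophic gate (edgeR adjusted p = 4.2e-06), -1.62 ± 0.26 in the endplate gate (adjusted p = 0.0013) and -4.22 ± 0.25 in the bone/stroma gate (adjusted p = 5.3e-08). Slc2a3 (GLUT3, a high-affinity transporter; chromosome 6, 122727809 to 122801640) had 5.70, 13.6, 12.1 and 6.60 CPM in other cartilage and 19.1, 71.9, 33.8 and 42.3 CPM in the bone/stroma gate. It was higher there by 1.92 ± 0.30 (adjusted p = 2.0e-04) and was not called in the hypertrophic gate (0.32 ± 0.33) or the endplate gate (-0.27 ± 0.56).

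Hk2, the inducible hexokinase that traps glucose as glucose 6-phosphate, was lower in all 3 gates. It had 127, 230, 246 and 107 CPM in other cartilage against 39.6, 32.8, 48.0 and 23.0 CPM in the hypertrophic gate. Its log2 difference was -2.47 ± 0.27 in the hypertrophic gate (adjusted p = 2.0e-05), -2.23 ± 0.37 in the endplate gate and -2.32 ± 0.27 in the bone/stroma gate. Hk1, the constitutive isozyme, had 68.7, 82.9, 74.5 and 59.4 CPM in other cartilage and 81.4, 55.5, 83.3 and 91.0 CPM in the hypertrophic gate. These ranges overlapped (-0.06 ± 0.22), and Hk1 was called lower only in the bone/stroma gate (-0.82 ± 0.22, adjusted p = 0.01). The isozymes of phosphofructokinase, the enzyme of the committed step, also differed in their calls. Pfkl was lower in all 3 gates (-1.13, -1.41 and -2.40) and Pfkp in the hypertrophic and bone/stroma gates (-1.51 and -3.81), while Pfkm, the muscle form, was called in none and had 5.65 to 17.7 CPM in the hypertrophic gate against 7.23 to 15.6 CPM in other cartilage. In the bone/stroma gate Pfkm stood at -0.75 ± 0.49, near the -0.82 of Hk1, and its low level limits what can be called. No difference between isozymes was tested directly.

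The remaining upper enzymes were lower in most contrasts. Aldoa, the main aldolase, had 790, 794, 753 and 806 CPM in other cartilage and 292, 108, 222 and 307 CPM in the hypertrophic gate (-2.00 ± 0.33, adjusted p = 5.5e-04), and was lower in the other 2 gates as well (-2.09 and -2.41). Tpi1, triosephosphate isomerase, differed by -2.16, -2.13 and -2.44 in the 3 gates and was called lower in each. Aldoc was lower in the hypertrophic gate (-2.26 ± 0.62) and in the bone/stroma gate (-5.49 ± 0.94), where it had 1.27, 1.16, 0 and 0 CPM against 17.8 to 29.6 CPM. Gpi1, glucose 6-phosphate isomerase, was called lower in the hypertrophic gate only (-1.57 ± 0.47, adjusted p = 0.023), and in the bone/stroma gate it ranged from 45.0 to 278 CPM. Pfkfb3 and Pfkfb4 set the level of fructose 2,6-bisphosphate, the activator of phosphofructokinase. Pfkfb3 was called lower in the hypertrophic gate (-1.30 ± 0.35, adjusted p = 0.013), and Pfkfb4, at most 8.40 CPM in other cartilage, in none.

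In lower glycolysis all 5 genes were lower in the bone/stroma gate, 4 in the hypertrophic gate and 2 in the endplate gate. Pkm, pyruvate kinase, had 787, 687, 854 and 872 CPM in other cartilage and 415, 107, 280 and 532 CPM in the hypertrophic gate. All 4 hypertrophic values lay below the cartilage range (-1.57 ± 0.40, adjusted p = 0.0095). Gapdh differed by -1.62, -1.97 and -1.74 in the 3 gates and Pgk1, phosphoglycerate kinase, by -1.80, -2.14 and -2.44, all called lower. Eno1, the enolase, was lower in the hypertrophic gate (-1.09 ± 0.37, adjusted p = 0.042) and in the bone/stroma gate (-2.57 ± 0.39). Pgam1, phosphoglycerate mutase, was called only in the bone/stroma gate (-1.84 ± 0.44), and in the hypertrophic gate it had 170, 76.6, 164 and 285 CPM against 325, 321, 247 and 312 CPM (adjusted p = 0.10). Gapdh, Eno1, Pgam1, Ldha, Pkm, Aldoa, Tpi1 and Pgk1 have processed copies elsewhere in the genome that can take or lose reads, and their levels are uncertain to that extent.

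Of the genes of lactate and pyruvate fate, Slc16a3 was lower in all 3 gates. Slc16a3 (MCT4, the transporter that exports lactate from glycolytic cells; chromosome 11, 120948480 to 120960868) had 85.9, 151, 92.1 and 93.1 CPM in other cartilage and 2.26, 0.669, 5.05 and 10.6 CPM in the hypertrophic gate, from 2, 2, 2 and 12 UMIs. The log2 difference was -5.08 ± 0.63 in the hypertrophic gate (adjusted p = 4.7e-05), -4.29 ± 0.89 in the endplate gate and -4.48 ± 0.59 in the bone/stroma gate. With every cell thinned to 5000 UMIs, 33.3%, 46.2%, 26.9% and 34.2% of the other cartilage cells held a UMI of Slc16a3, against 0 of 35, 0 of 135, 0 of 14 and 3 of 55 hypertrophic cells. Before thinning the shares were 59.7%, 62.1%, 40.5% and 44.4% against 2.63%, 1.47%, 6.67% and 12.5%. Free RNA can add UMIs to any droplet, and a hypertrophic share at this level is not read as expression.

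Ldha, which makes lactate, had 785, 847, 722 and 715 CPM in other cartilage and 349, 108, 354 and 483 CPM in the hypertrophic gate, with no overlap, and was lower in all 3 gates (-1.54, -2.07 and -2.05). Ldhb, which favors the reverse reaction, did not follow it. It had 46.0, 27.2, 30.7 and 46.2 CPM in other cartilage and 39.6, 36.8, 45.5 and 23.9 CPM in the hypertrophic gate (-0.25 ± 0.25), and 106, 93.3 and 122 CPM in the 3 endplate sums fitted. It was called higher in the endplate gate (1.07 ± 0.31, adjusted p = 0.032), a call that was lost without the library labelled 3-month control, 3-month mutant or 12-16-month control, and without the called doublets. Slc16a1 (MCT1), at 4.20 to 10.2 CPM in other cartilage, was called in none. Pdk1, the kinase that holds pyruvate back from the mitochondria, was lower in the hypertrophic gate (-0.66 ± 0.20, adjusted p = 0.027) and in the bone/stroma gate (-1.66 ± 0.22).

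**Figure D3:**
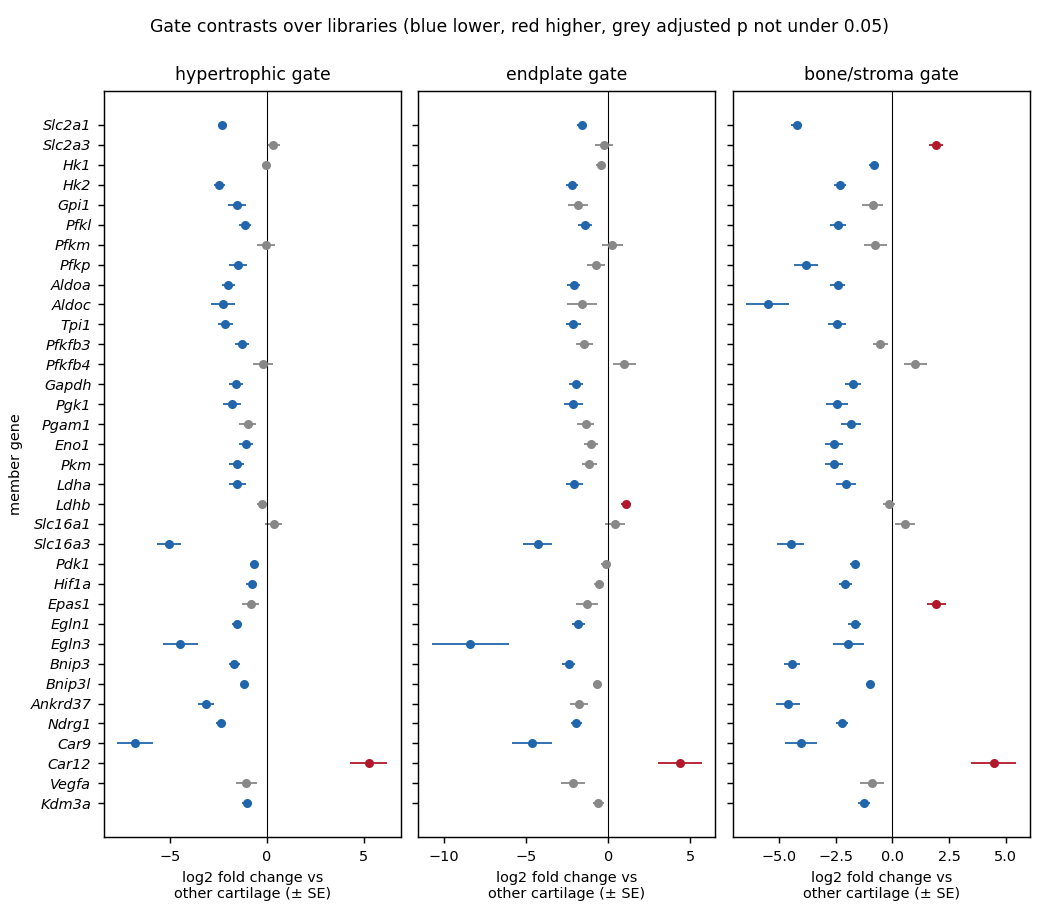
Log2 difference of each of the 35 genes (rows) between the hypertrophic, endplate and bone/stroma gates and other cartilage, with its SE, from the edgeR fit over libraries (n = 4, 3 for the endplate gate). Blue points are called lower, red points higher and gray points not called, and most points lie left of 0 in each panel.

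The HIF subunits parted. Hif1a, the subunit made in most cells, had 274, 301, 334 and 352 CPM in other cartilage, 234, 137, 179 and 309 CPM in the hypertrophic gate and 127, 60.3, 78.8 and 77.4 CPM in the bone/stroma gate. It was lower in the hypertrophic gate by 0.80 on the log2 scale (-0.80 ± 0.27, adjusted p = 0.045), where the ranges overlapped, and in the bone/stroma gate (-2.08 ± 0.29, adjusted p = 6.2e-05). Epas1 (HIF-2α, a subunit prominent in vessels; chromosome 17, 86753700 to 86833410) had 33.5, 47.2, 40.6 and 46.8 CPM in other cartilage and 161, 92.8, 142 and 441 CPM in the bone/stroma gate, where it was higher (1.93 ± 0.42, adjusted p = 0.0025). The cells outside all gates had 309, 506, 358 and 395 CPM of Epas1. HIF is controlled after translation, and mRNA levels of its subunits do not give its activity.

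Both prolyl hydroxylases were lower in all 3 gates. Egln1 (PHD2) had 82.6, 115, 127 and 99.1 CPM in other cartilage and 33.9, 26.4, 60.6 and 53.0 CPM in the hypertrophic gate (-1.55 ± 0.27, adjusted p = 8.5e-04). Egln3 (PHD3), itself a HIF target, had 13.6, 31.0, 28.5 and 14.4 CPM in other cartilage and 3.39, 0, 0 and 1.77 CPM in the hypertrophic gate, from 3, 0, 0 and 2 UMIs. In the endplate gate Egln3 had 0 UMIs of 757701 in the 3 libraries fitted, against 195 UMIs (17.4 CPM) in their other cartilage, and was at least 4.39-fold lower when 3 UMIs over the gate are taken as the floor.

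The 8 HIF targets summed to 783, 1094, 846 and 805 CPM in other cartilage and 451, 331, 376 and 641 CPM in the hypertrophic gate. The 2 ranges did not overlap in CPM. Per cell, the hypertrophic sum was above that of other cartilage in the library labelled 12-16-month mutant. In the endplate gate the sums were 366, 361, 215 and 780.5 CPM, the third from 1 cell and the last, from 6 cells, within the counting error of other cartilage. In the bone/stroma gate they were 333, 334, 327 and 321 CPM, and in its stricter form, without cells holding a UMI of Sox9, Ptprc, Cdh5 or Acta2, 321, 806, 349 and 328 CPM. There the library labelled 3-month mutant, with 13 cells, lay within the cartilage range, and Car12 alone had 362 of its 806 CPM. Bnip3, a mitophagy receptor, had 263, 346, 272 and 217 CPM in other cartilage, 63.3, 80.3, 141 and 115 CPM in the hypertrophic gate and 21.7, 9.28, 8.45 and 19.6 CPM in the bone/stroma gate. It was lower in each (-1.69 ± 0.30 in the hypertrophic, -2.41 ± 0.40 in the endplate and -4.41 ± 0.36 in the bone/stroma gate, adjusted p = 9.8e-04, 0.0015 and 7.5e-07). Its relative Bnip3l was lower by less, -1.19 ± 0.18 in the hypertrophic and -0.98 ± 0.18 in the bone/stroma gate. Ndrg1, a stress-responsive differentiation gene, differed by -2.39, -1.96 and -2.20 in the 3 gates, all called. Ankrd37 was lower in the hypertrophic gate (-3.16 ± 0.44) and in the bone/stroma gate (-4.61 ± 0.54). Kdm3a, a histone demethylase, was lower in the same 2 gates (-1.04 ± 0.25 and -1.26 ± 0.26).

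Car9 and Car12, membrane carbonic anhydrases that help export acid, showed opposite patterns. Car9 (chromosome 4, 43506966 to 43513729) had 16.7, 36.6, 21.9 and 21.6 CPM in other cartilage, from 120, 86, 20 and 36 UMIs, and 1 UMI in all hypertrophic cells. It was called lower in all 3 gates (-6.83 ± 0.92, -4.65 ± 1.20 and -4.02 ± 0.69), sizes that rest on few UMIs in the gates. Car12 (chromosome 9, 66713686 to 66766845) had 71.2, 24.8, 75.8 and 171 CPM in the hypertrophic gate and 3.06, 0, 1.10 and 0.600 CPM in other cartilage, from 22, 0, 1 and 1 UMIs. It was the 1 gene of the 35 called higher in all 3 gates (5.27 ± 0.95, 4.34 ± 1.34 and 4.46 ± 1.00, adjusted p = 0.001, 0.044 and 0.0029). In cells thinned to 5000 UMIs, 34.3%, 7.41%, 14.3% and 43.6% of hypertrophic cells held a UMI of Car12 and 0.821%, 0%, 0% and 0.671% of other cartilage cells, where 0 of 197 and 0 of 67 cells allow up to 1.86% and 5.36% of cells with a UMI at this depth (exact binomial). These limits do not bound the share of cells that express Car12. The shares in other cartilage stand as the background for the hypertrophic ones. The unthinned shares were 50%, 29.4%, 66.7% and 71.4% against 1.37%, 0%, 1.35% and 0.510%. In the bone/stroma gate Car12 had 37.0, 56.8, 64.7 and 1.03 CPM, so that the library labelled 12-16-month mutant lay within the cartilage range.

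Vegfa, the vessel growth factor, was called in none of the gates and varied widely between libraries in the hypertrophic gate. It had 108, 169, 116 and 131 CPM in other cartilage and 181, 24.1, 15.2 and 175 CPM in the hypertrophic gate (-1.07 ± 0.56, adjusted p = 0.18). Hypertrophic Vegfa was above the cartilage range in the libraries labelled 3-month control and 12-16-month mutant and below it in the other 2. Col10a1 was also highest in those 2 libraries, with 2993 and 2215 CPM against 640 and 0 CPM, and its part in the result was not tested.

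The promoters of a few genes are shown because many of the 35 genes moved together and HIF is known to bind the motif ACGTG and, in a variant form, the motif GCGTG. The window is the 250 bases before the RefSeq transcription start (GRCm38.p6), 5′ to 3′ on the strand of the gene, with each match of either motif, on either strand, in capitals. A palindromic match counts on both strands, and neighboring matches may overlap. Pgk1, Ldha, Bnip3 and Ankrd37 were lower in the bone/stroma gate and the hypertrophic gate, and Car12 was higher in both.
Pgk1 (chrX:106186850-106187099, plus strand): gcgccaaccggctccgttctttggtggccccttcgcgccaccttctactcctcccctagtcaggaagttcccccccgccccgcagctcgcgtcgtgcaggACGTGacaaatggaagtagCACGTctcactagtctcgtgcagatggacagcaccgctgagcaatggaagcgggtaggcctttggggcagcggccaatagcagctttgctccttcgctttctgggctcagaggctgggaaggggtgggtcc
Ldha (chr7:46845554-46845803, plus strand): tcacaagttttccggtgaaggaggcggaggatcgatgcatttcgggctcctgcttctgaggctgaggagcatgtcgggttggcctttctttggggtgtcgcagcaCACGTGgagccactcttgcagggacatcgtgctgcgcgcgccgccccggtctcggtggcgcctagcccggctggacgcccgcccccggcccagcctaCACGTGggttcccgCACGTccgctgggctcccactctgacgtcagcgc
Bnip3 (chr7:138909507-138909756, minus strand): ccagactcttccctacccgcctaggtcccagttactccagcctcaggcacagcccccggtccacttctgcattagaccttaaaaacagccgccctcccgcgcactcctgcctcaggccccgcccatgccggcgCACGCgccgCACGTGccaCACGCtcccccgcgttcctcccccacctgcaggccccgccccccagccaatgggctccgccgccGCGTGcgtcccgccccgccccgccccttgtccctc
Ankrd37 (chr8:45999851-46000100, minus strand): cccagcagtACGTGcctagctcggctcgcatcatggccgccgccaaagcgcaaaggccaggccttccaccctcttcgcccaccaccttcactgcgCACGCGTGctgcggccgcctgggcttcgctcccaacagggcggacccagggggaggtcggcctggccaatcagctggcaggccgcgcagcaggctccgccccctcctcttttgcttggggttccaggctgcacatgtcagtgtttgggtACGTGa
Car12 (chr9:66713436-66713685, plus strand): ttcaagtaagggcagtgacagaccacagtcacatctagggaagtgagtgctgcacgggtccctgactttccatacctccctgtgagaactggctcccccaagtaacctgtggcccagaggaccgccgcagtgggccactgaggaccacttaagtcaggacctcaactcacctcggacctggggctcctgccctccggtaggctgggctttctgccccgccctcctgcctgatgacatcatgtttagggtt
Whether the presence of a motif goes with the direction of the call was not tested, and few of the genes were called higher. Car12, called higher in all 3 gates, had no match of either motif, but neither had Tpi1, called lower in all 3 gates, Pkm, Gpi1 or Hk1, each called lower in at least 1 gate. Gapdh, Eno1, Pfkl, Pfkp, Aldoc, Pdk1 and Kdm3a, also called lower in at least 1 gate, had no match of ACGTG. The 5 promoters printed were chosen after the values were seen. Of the 35 genes, 28 had a RefSeq start within 250 bases of a start in the gene annotation. ACGTG was present in 14 of these 28 (50%) and in 18.7% of 14300 promoters of the same length, GCGTG in 60.7% and 36.9%, and either of them in 82.1% and 47.2%. The promoters of the 28 had a median GC content of 60% against 56.8%. A match describes the letters only, and the genes were listed as hypoxia-responsive by earlier knowledge.

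Genes of the same pathways that are not among the 35 were read from the same fits. In a list of 30 other hypoxia-induced genes, 26 were tested. Of these, 11 were lower and 2 higher in the hypertrophic gate (13.8% and 12.2% of all genes). In the endplate gate 9 were lower and 1 higher (7.7% and 6.7% of all genes), and in the bone/stroma gate 16 and 2 (17.9% and 17.9%). Ndufa4l2 (-5.55 ± 1.11 in the hypertrophic, -5.10 ± 1.26 in the endplate and -7.06 ± 1.17 in the bone/stroma gate) and Higd1a (-3.12 ± 0.52, -3.87 ± 0.64 and -3.67 ± 0.52), both small mitochondrial proteins, were called lower in each. Angptl4, a secreted inhibitor of lipoprotein lipase, was higher in the bone/stroma gate (6.04 ± 0.50, adjusted p = 8.3e-07), as was Vldlr, a lipoprotein receptor (2.83 ± 0.55), while Stc2 was lower (-5.44 ± 0.76). Rora, a nuclear receptor, was higher in the hypertrophic gate (1.23 ± 0.33) and in the endplate gate (1.55 ± 0.35). Of 10 HIF partners and regulators 8 were tested and 1 was called, Rbx1, lower in the hypertrophic gate (-0.63 ± 0.22).

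Other branches of glucose use held calls in both directions, as all genes did. Of all genes, 12.2% were higher and 13.8% lower in the hypertrophic gate. The shares were 6.7% and 7.7% in the endplate gate and 17.9% and 17.9% in the bone/stroma gate. Of 13 genes of pyruvate entry to mitochondria 11 were tested, and 1 was higher and 1 lower in the hypertrophic gate, namely Mpc1 (0.82 ± 0.17), a pyruvate carrier, and Pdha1 (-0.92 ± 0.22). In the bone/stroma gate these were Pdk4 (3.51 ± 0.59), a kinase of fasting tissues, and Pcx (-1.73 ± 0.63), and in the endplate gate 0 of 11 were called by edgeR. Of the 7 pentose phosphate genes Pgd (-1.33 ± 0.21) and G6pdx (-1.31 ± 0.41) were lower in the hypertrophic gate, Pgd in the endplate gate (-1.86 ± 0.32), and Rpia (0.88 ± 0.30) and Pgls (0.68 ± 0.23) were higher in the bone/stroma gate. Of 12 glycogen genes, 2 were higher in the hypertrophic gate, among them Ppp1r3b (4.73 ± 0.77), 1 was lower in the endplate gate (Ugp2, -1.10 ± 0.32), and 3 were higher and 3 lower in the bone/stroma gate. There the phosphatase subunits that guide glycogen synthesis were opposed, with Ppp1r3b at 5.56 ± 0.76 and Ppp1r3c at -5.19 ± 0.57, and Pygm (2.32 ± 0.56) and Pgm1 (-1.31 ± 0.36) were the next highest and lowest. Of 17 other glycolysis isozymes and transporters 5 were tested. Slc16a7 (MCT2) was lower in the hypertrophic gate (-3.34 ± 0.83) and higher in the bone/stroma gate (2.55 ± 0.49), Bpgm was lower in both (-1.18 ± 0.27 and -1.88 ± 0.29), and in the bone/stroma gate Adpgk was higher (1.00 ± 0.28) and Eno1b, nearly identical to Eno1 in sequence, lower (-2.77 ± 0.75).

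The question of the study, cells labelled mutant against cells labelled control, was first asked in the other cartilage cells, the largest gate. With 1 library per condition there is no test. Ratios of CPM are given with 95% intervals for counting error only, and a gene was counted as past the fold at a ratio of at least 1.5 or at most 1/1.5 when both libraries together held at least 50 UMIs. At 3 months 8 of 34 genes were past the fold upward, where 6.94% of all genes were, and 1 downward, where 12% of all genes were. The 8 were Slc2a3 (2.39, 1.46 to 3.88), Hk2 (1.81, 1.62 to 2.01), Slc16a3 (1.75, 1.53 to 2.00), Egln3 (2.28, 1.66 to 3.12), Ndrg1 (1.57, 1.41 to 1.75), Car9 (2.19, 1.64 to 2.92), Vegfa (1.57, 1.39 to 1.77) and Kdm3a (1.80, 1.48 to 2.19). The 1 downward was Ldhb (0.591, 0.445 to 0.775). Of these 9, 2 are enzymes of glycolysis itself, Hk2 and Ldhb, and the sum of the 16 enzymes was 5422 CPM under the control label and 5625 CPM under the mutant label. The 8 HIF targets summed to 783 and 1094 CPM. The median log2 ratio was 0.27 over the 34 genes and -0.03 over all genes. Per cell, 3 genes were past the fold upward and 3 downward, counts given without the share of all genes on that scale.

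At 12-16 months the higher levels under the mutant label were not seen. Of 30 genes 1 was past the fold upward (6.54% of all genes) and 4 downward (10.4%). The 4 were Hk2 (0.438, 0.358 to 0.535), Gpi1 (0.608, 0.504 to 0.735), Gapdh (0.537, 0.485 to 0.595) and Egln3 (0.505, 0.278 to 0.916), and the 1 was Ldhb (1.51, 0.966 to 2.41), whose interval includes 1. Hk2 had 127 and 230 CPM under the control and mutant labels at 3 months and 246 and 107 CPM at 12-16 months. Slc16a3, Ndrg1, Car9 and Vegfa had ratios of 1.01, 0.927, 0.986 and 1.13. No gene was past the fold in the same direction at both ages. The median log2 ratio was 0.02 over the 30 genes and -0.06 over all genes.

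**Figure D4:**
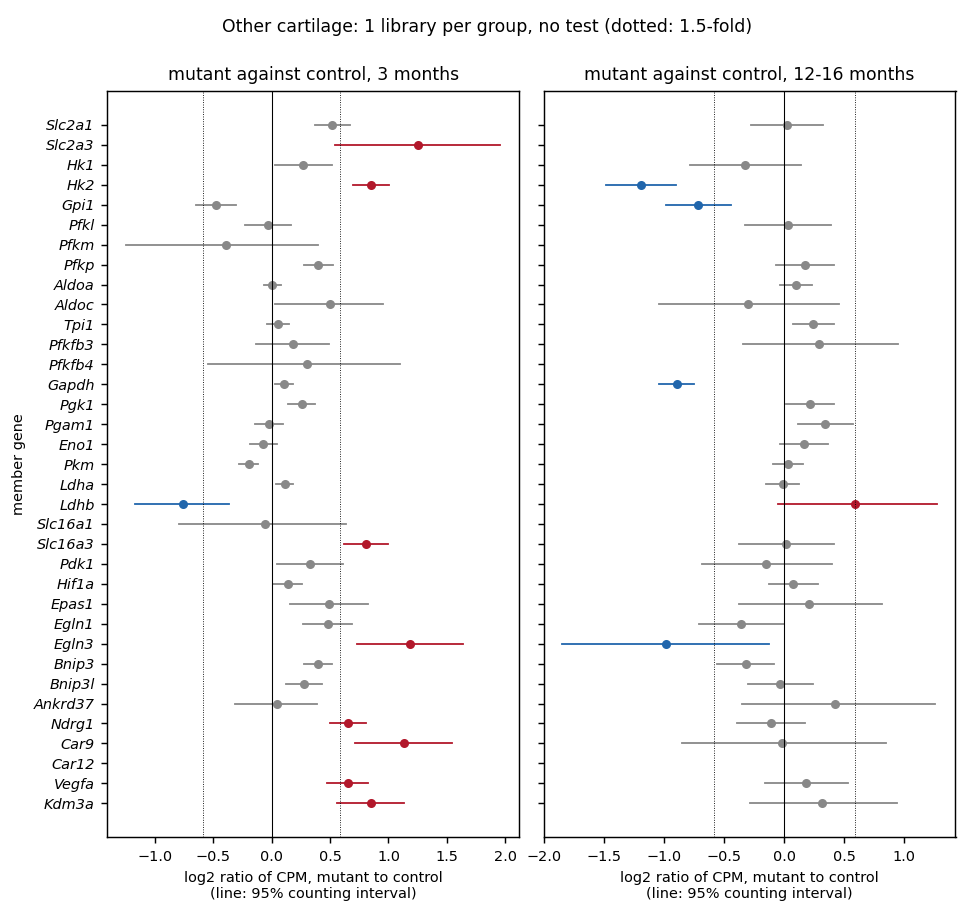
Log2 ratio of CPM between the libraries labelled mutant and control in other cartilage cells at 3 months (left) and 12-16 months (right) for the 35 genes (rows), with 95% counting intervals and dotted lines at 1.5-fold. Genes with fewer than 50 UMIs in both libraries together are blank. The 8 genes past the fold upward at 3 months (red) were not so at 12-16 months, where Slc2a3, 1 of them, is blank.

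The ages were compared within each label in the same cells. Under the control label, 5 of 34 genes were past the fold upward at 12-16 months (12.4% of all genes) and 3 downward (11.6%). The 5 were Slc2a3 (2.12, 0.981 to 4.19), Hk2 (1.93, 1.66 to 2.23), Aldoc (1.66, 1.06 to 2.53), Egln1 (1.54, 1.25 to 1.88) and Egln3 (2.09, 1.30 to 3.25). Pfkfb4 (0.503, 0.100 to 1.56), Slc16a1 (0.540, 0.170 to 1.32) and Ankrd37 (0.578, 0.347 to 0.910) were downward, with intervals that include 1 for the first 2. Under the mutant label 1 of 30 was upward (8.87% of all genes) and 7 were downward (10.8%). Ldhb was upward (1.70, 1.20 to 2.40), and Hk2 (0.467), Gapdh (0.550), Slc16a3 (0.618), Egln3 (0.464), Bnip3 (0.628), Car9 (0.591) and Kdm3a (0.659) were downward. Per cell, 17 genes were downward under the mutant label and 5 under the control label, counts given without the share of all genes on that scale. Median UMIs per cell were 10469 at 3 months and 7166 at 12-16 months under the mutant label. Under the control label they were 12374 and 9848, and the part of depth in these counts was not tested. The comparisons share libraries and are not independent of each other.

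In the hypertrophic gate the library labelled 3-month mutant had the lowest levels of the glycolytic enzymes. Their sum was 989 CPM (136 cells) against 2347 CPM (38 cells) under the control label at 3 months, and 3123 CPM (56 cells) against 2270 CPM (15 cells) at 12-16 months. At 3 months 14 of 27 genes were past the fold downward (13.7% of all genes) and 3 upward (20.3%). Pkm had 415 CPM under the control label and 107 CPM under the mutant label (ratio 0.257, 0.221 to 0.30), Ldha 349 and 108 CPM (0.310, 0.265 to 0.364) and Vegfa 181 and 24.1 CPM (0.133, 0.0994 to 0.177). The others downward were Pfkl, Pfkp, Aldoa, Tpi1, Pfkfb3, Gapdh, Pgk1, Pgam1, Eno1, Hif1a and Car12, with ratios of 0.348 to 0.585. Slc2a3 (3.50, 1.53 to 9.86), Ndrg1 (2.32, 1.51 to 3.71) and Kdm3a (2.40, 1.43 to 4.33) were upward, and Slc2a1, Hk1, Hk2, Gpi1, Bnip3 and Bnip3l were within the fold. In the hypertrophic cells outside the endplate gate 13 of 17 were downward (16.5% of all genes) and 2 upward (19.9%). The downward count was 14 of 26 in those inside the endplate gate (15.6%). It was 16 in the whole gate when counted per cell, without a share of all genes beside it.

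At 12-16 months the direction under the mutant label was the opposite in this gate, with 9 of 22 genes past the fold upward (15.7% of all genes) and 0 downward (11.1%). Vegfa had 175 CPM against 15.2 CPM (11.5, 5.21 to 31.8) and Pkm 532 against 280 CPM (1.90, 1.55 to 2.35). Tpi1 (2.03), Pgk1 (1.74), Pgam1 (1.74), Eno1 (1.62), Hif1a (1.73) and Car12 (2.25) were also upward with intervals above 1, as was Epas1 (21, 3.63 to 843), which had 1 UMI under the control label. The library labelled 12-16-month control gave 15 hypertrophic cells without a UMI of Col10a1. Per cell, 4 of the 9 genes were past the fold, a count without a share of all genes beside it. Within the mutant label, 18 of 28 genes were past the fold upward at 12-16 months against 3 months (14.6% of all genes) and 3 downward (14.1%), with a median log2 ratio of 1.08 against 0.01 for all genes. Pgk1 (5.40, 4.32 to 6.78), Pkm (4.99, 4.35 to 5.73), Tpi1 (4.76, 3.91 to 5.81) and Ldha (4.46, 3.88 to 5.13) led the enzymes. Within the control label, 3 of 21 were upward (15.6%), namely Gpi1, Egln1 and Bnip3, and 1 downward (16.4%), Vegfa (0.0838, 0.0303 to 0.186). Stress genes in the gate summed to 19171, 13388, 9587 and 12029 CPM. Against the control label they were lower under the mutant label at 3 months and higher at 12-16 months, as the enzyme sums were. Between the ages they did not move as the enzyme sums did. Under the mutant label stress genes fell from 13388 to 12029 CPM while the enzyme sum rose. Under the control label they fell from 19171 to 9587 CPM while the enzyme sum changed little. The part of the stress genes in these ratios was not tested.

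**Figure D5:**
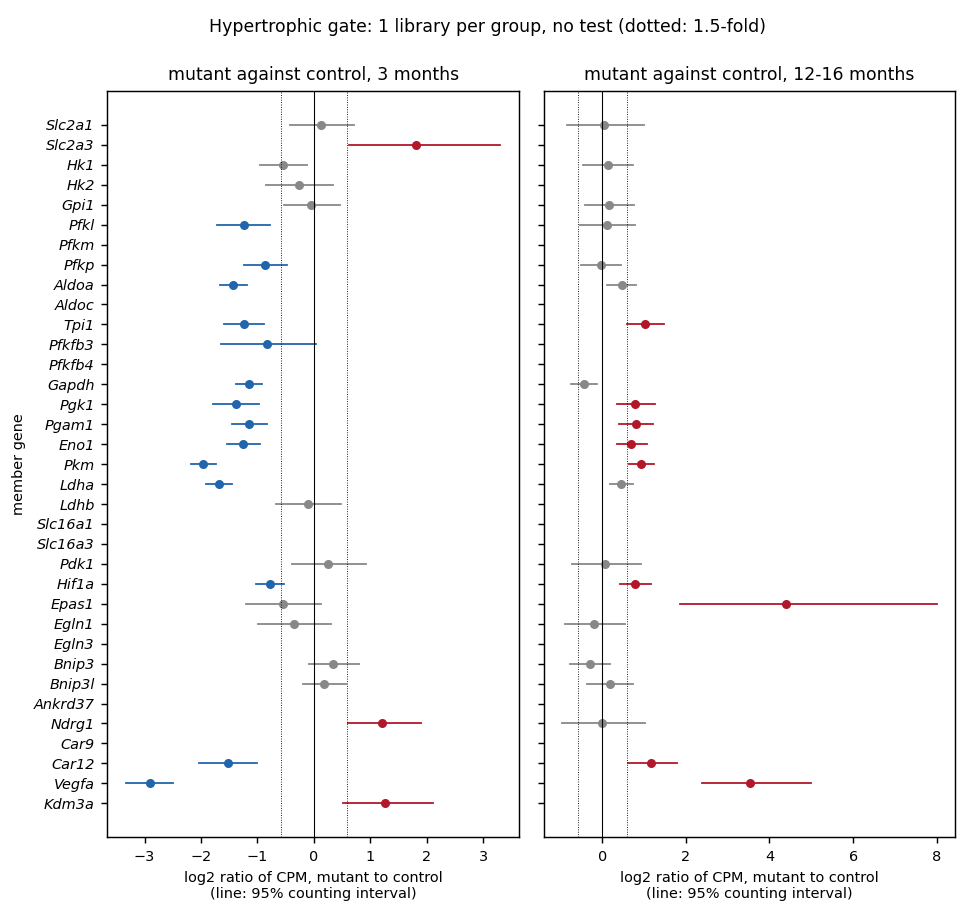
Log2 ratio of CPM between the libraries labelled mutant and control in the hypertrophic gate at 3 months (left) and 12-16 months (right) for the 35 genes (rows), with 95% counting intervals and dotted lines at 1.5-fold. At 3 months 14 genes were past the fold downward (blue), and at 12-16 months 9 were past it upward (red).

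The endplate gate held few cells, 14 and 38 at 3 months. Of 14 genes 8 were past the fold downward under the mutant label (13.6% of all genes) and 1 upward (24%). Ldha had 398 and 81.4 CPM (0.205, 0.136 to 0.303), Pgk1 164 and 37.7 CPM (0.229, 0.122 to 0.419) and Pkm 626 and 220 CPM (0.352, 0.269 to 0.460). Within the mutant label 8 of 11 were upward at 12-16 months (16.1%), from 6 cells, of which 2 were called doublets.

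In the bone/stroma gate the glycolytic enzymes summed to 1208 CPM under the control label and 2533 CPM under the mutant label at 3 months, and 14 of 23 genes were past the fold upward (36% of all genes) and 4 downward (19.6%). This was the gate with the immune markers. With cells holding a UMI of Sox9, Ptprc, Cdh5 or Acta2 left out, a stricter gate chosen after the data were seen for this comparison, the sums were 1078 CPM (36 cells) and 550.2 CPM (13 cells), and Gapdh had 183 and 52.8 CPM in place of 192 and 520 CPM. The direction of the enzyme sum therefore turned with those cells. Slc2a3 kept its direction, with 21.8 and 121 CPM in the stricter gate, and so did Car12 (42.1 and 362 CPM), while Epas1, lower under the mutant label before (161 and 92.8 CPM), had 135 and 294 CPM. At 12-16 months 8 of 18 genes were past the fold upward (28.9% of all genes) and 1 downward (5.6%). The enzymes summed to 859 and 1184 CPM, and Epas1 had 142 and 441 CPM (3.10, 2.49 to 3.89), with 132 and 412 CPM in the stricter gate. Between the ages 2 of 19 were upward (9.11%) and 6 downward (15%) under the control label, and 3 of 23 upward (25.9%) and 15 downward (27%) under the mutant label. The enzyme sum under the mutant label was 2533 CPM at 3 months and 1184 CPM at 12-16 months, but 550.2 and 893 CPM in the stricter gate, so that its direction between the ages turned as well.

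Over all passing cells the 3-month libraries gave another picture than the other cartilage cells alone. The enzyme sum was 4673 CPM under the control label and 2804 CPM under the mutant label, and 11 of 35 genes were past the fold downward (10.8% of all genes) and 3 upward (24.9%). Pkm had 682 and 330 CPM (0.483, 0.461 to 0.506) over all cells and 787 and 687 CPM in other cartilage. Hypertrophic cells made up 5.30% and 28.1% of the passing cells and other cartilage 71.3% and 41.9%. At 12-16 months the enzyme sum was 3164 and 3447 CPM over all cells, with 11.1% and 13.3% hypertrophic cells, and 6 genes were past the fold upward (13%) and 3 downward (5.33%). Between the ages 3 were upward (16.6%) and 10 downward (10.2%) under the control label, and 6 upward (12.4%) and 2 downward (9.84%) under the mutant label. Sums over all cells mix the share of each gate with the level within it, and the levels within gates are given separately above.

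Within other cartilage, glycolysis and hypoxia genes varied together from cell to cell. In cells thinned to 5000 UMIs, Spearman's correlation between the enzyme sum and the sum of the HIF targets was 0.41 (487 cells), 0.65 (197 cells), 0.34 (67 cells) and 0.48 (149 cells) in the 4 libraries. The points share a library, their thinned depth and the total of which both sums are a part, and no p is given. A thinned cell held a median of 26, 28, 25 and 23 UMIs of the enzymes and 3, 5, 4 and 3 of the HIF targets. The enzyme sum also went with the stress genes, at 0.21, 0.48, 0.11 and 0.38. For the sum of the HIF targets and the stress genes the correlation was 0.30, 0.34, -0.02 and 0.32.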

How the data were processed

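Single-cell RNA-sequencing was performed on tdTom+ spine cells, with 1 library per condition. The files deposited by the authors hold UMI counts for each barcode. Cell Ranger 8.0.0 and mm10 are named in the file headers and the submitters' processing notes. The counts were used without normalization or correction for free RNA. Counts on mm10 were joined to the GRCm38 annotation by Ensembl identifier. Of 32286 rows, 38 symbols had more than 1 row, among them Aldoa, whose second row held 6 UMIs and was not used. Columns of other samples numbered 0.

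Cells were filtered as in the study's methods, but SoupX was not repeated. Doublets were called per library with Scrublet (scanpy 1.11.5, expected rate 6%), which marked 8, 4, 9 and 4 cells, and were kept. Its automatic score cutoffs were rounded and fixed at 0.25, 0.22, 0.106 and 0.2, because that of the library labelled 3-month control switched between a lower and a higher value with floating-point rounding. Summed counts were tested with edgeR 4.0.16 in R 4.3.3 (TMM scaling, filterByExpr, quasi-likelihood test, library as block), and sums of fewer than 5 cells were left out. The SE given with a log2 difference is its absolute value divided by the square root of the test's F statistic. It is therefore an approximation and not an output of the fit. The procedure was run on simulated data in which each gene had the same library effect in all gates. Gate differences that vary between libraries beyond count noise were not simulated, so that run cannot show how the test behaves with them. Pairing comes from the design: gates of the same library share its cells' source. DESeq2 1.42.0 served as an alternative. CPM, ratios and intervals (exact Poisson, conditional binomial, Clopper-Pearson, 95%, counting error only) came from scipy 1.17.1, with pandas 2.3.3, numpy 2.4.6 and matplotlib 3.10.9 under Python 3.11.15. A count of 0 was set to 3 for bounds.

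The members and all lists were chosen with earlier results of these data known. All 35 members are accounted for, and in detail those called in a gate contrast or past the fold alike in both label or both age contrasts of other cartilage. Of each companion list, up to 2 called genes with the highest and up to 2 with the lowest log2 ratio per gate contrast are named, except some that are not reported here. The genes shown by promoter were chosen after their values were seen. Promoters are from RefSeq (GRCm38.p6), and 28 of 35 were used. Passing cells held 2154537 to 9429264 UMIs per library, and gates with few cells limit the precision. Single-cell clusters of the study were not used here.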

Additional observations from a re-analysis of the deposited data

Results flagged for a closer look

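In 11 cases the ratio, mutant label over control label, was past 1.5-fold in opposite directions at the 2 ages. The difference between the ages was not tested, since there is 1 library per condition. In other cartilage the log2 ratio at 12-16 months minus that at 3 months was -2.05 for Hk2 (0.85 at 3 months and -1.19 at 12-16 months), -2.17 for Egln3 (1.19 and -0.98) and 1.35 for Ldhb (-0.76 and 0.59).

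In the hypertrophic gate all 8 cases went from lower to higher under the mutant label. The change in log2 ratio was 6.44 for Vegfa (-2.91 and 3.53), 2.88 for Pkm (-1.96 and 0.92), 2.69 for Car12 (-1.52 and 1.17), 2.27 for Tpi1 (-1.25 and 1.02), 2.18 for Pgk1 (-1.39 and 0.80), 1.95 for Eno1 (-1.25 and 0.70), 1.94 for Pgam1 (-1.15 and 0.80) and 1.56 for Hif1a (-0.77 and 0.79). The library labelled 12-16-month control gave 15 cells to this gate.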

How the results depend on the processing

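With 1 library per condition, label and age contrasts have counting error only, and small gates (15 hypertrophic and 1 endplate cell in the library labelled 12-16-month control) limit what can be seen. No paired analysis was possible for those contrasts because each condition has 1 library. For the gate contrasts the library was a replicate block. With no replicate block 22, 15 and 25 genes were lower in the hypertrophic, endplate and bone/stroma gates (12.8%, 6.99% and 17% of all genes). In the same order 1, 2 and 3 were higher (11.4%, 7% and 17.9% of all genes). Of single-gene values, 908 of the gate contrasts kept their direction and side of the threshold, 120 lost the call and 6 reversed. Of the library contrasts 380 values were counted as the same, 22 as moved and 3 as reversed. There a value within the counting interval of the main ratio was counted as the same. It need not have stayed past the fold. The cause of these changes was not tested.

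Counted as UMIs per cell, a setting chosen after seeing the data, the number higher and lower was 5 and 7 in the hypertrophic, 2 and 9 in the endplate and 6 and 17 in the bone/stroma gate, and the reversed log2 values were Pfkl 0.079, Eno1 0.12, Pdk1 0.52, Hif1a 0.40 and Kdm3a 0.10 in the hypertrophic and Hk1 0.10 in the bone/stroma gate. Of all genes, 64.8% and 4.93%, 13.4% and 3.17%, and 55.1% and 8.17% were higher and lower per cell in these gates. Leaving out 1 library gave 16 to 22 lower genes in the hypertrophic gate (8.87% to 13.4% of all genes). In the endplate gate it gave 6 to 12 lower (2.75% to 5.72%) and 0 to 2 higher (2.68% to 5.84%). The endplate gate also had 22 lower and 1 higher without a filter on low counts (5.56% and 3.61% of all genes). It had 1 higher with the endplate gate taken first (13.8%) or a stricter bone/stroma gate (9.19%), and 0 higher by edgeR without doublets (6.63%).

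In other cartilage, a fold of 2 left 3 genes upward and 0 downward under the mutant label at 3 months, 0 and 1 at 12-16 months, 2 and 0 between the ages under the control label and 0 and 2 under the mutant label, and 4 upward at 12-16 months in the hypertrophic gate. Per cell these pairs were 3 and 3, 0 and 10, 3 and 5, and 0 and 17, with 4 in the hypertrophic gate. With a minimum of 20 UMIs, 2 genes were downward at 3 months, 2 upward at 12-16 months and 2 upward between the ages under the mutant label. With a minimum of 200 UMIs, 0 were upward at 12-16 months, 2 upward and 1 downward between the ages under the control label and 0 upward under the mutant label. At 12-16 months 0 were upward in cells of at least 5000 UMIs or without doublets. With every cell weighted equally, 2 were downward at 12-16 months and 2 upward between the ages under the control label, and 3 log2 values reversed, Egln3 at 12-16 months (0.16), Pfkfb4 between the ages under the control label (0.49) and Gpi1 in the hypertrophic gate between those ages (-0.26). The share of all genes also changes with these settings and is not given here, so the counts show only how the calls depend on the setting.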
